A study of Mus musculus with 23 samples.

Results

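The SR (serine/arginine-rich) and heterogeneous nuclear ribonucleoprotein (hnRNP) families are the 2 large families of RNA-binding proteins that steer splicing. They were described here over all probe sets of the Affymetrix Mouse Genome array used whose annotation names exactly 1 gene with a symbol that starts with Srsf and a number, Hnrnp or Hnrp. A probe set is a group of short probes that read the same transcript near its 3′ end. The rule found 78 of 22626 probe sets, which read 27 of the 12393 genes named by a probe set of 1 gene, with 28 probe sets of 9 SR genes and 50 of 18 hnRNP genes. No measured value entered the rule. RNA came from *longissimus dorsi* (LD), a paraspinal postural muscle, and from tongue (TN) of male mice of strain C57BL/N6 in the series' design (C57/BL6 in the sample labels), aged 19 to 20 weeks. The labels name no transgene or deletion in any group. Bion Flown (BF) mice spent 30 days in microgravity aboard the Bion M1 biosatellite and were sampled 12 to 14 h after landing. Bion Ground (BG) mice lived in the habitat of the flown mice under Earth gravity, and Flight Control (FC) mice lived in a standard animal facility. There were 5 arrays each of LD BF, LD BG and LD FC, 3 each of TN BF and TN BG, and 2 of TN FC. Whether a mouse gave both muscles is not stated in the sources used here. Values are log2 expression after Robust Multichip Average (RMA), so a difference of 1 is a 2-fold change. A change passed the test at a limma p under 0.05 after Benjamini-Hochberg adjustment over the whole array.

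SR proteins bind exonic enhancers through RNA recognition motifs and recruit the splicing machinery through their arginine/serine-rich tail, which the Clk and Srpk kinases phosphorylate. The hnRNPs coat nascent transcripts and often oppose SR proteins at the same exons, and several also act in mRNA export, stability and translation. Many genes of both families limit their own level by splicing in a poison exon, which sends the mRNA to nonsense-mediated decay. In skeletal muscle, alternative splicing shapes troponins, titin and calcium-handling proteins, and it shifts from fetal to adult forms after birth.

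The array medians lay between 6.42 and 6.61, and the SD of an array around its group mean, over all probe sets, between 0.103 and 0.356. The highest SD belonged to LD BG replicate 5. That array also had the highest summed linear level of 11 macrophage markers (21400, against 6020 to 9800 in the other BG arrays, 3120 to 10500 in BF and 3600 to 8020 in FC) and of 5 mast cell markers (2070, against 354 to 622 in the other BG arrays). Its SR and hnRNP probe sets lay on average 0.218 above the BG mean, so counts against BG are given below with and without it. LD FC replicate 1 had the largest such deviation of the 23 arrays, at -0.278, and counts against FC are given without it too. The 8 fibre markers, which include *Acta1* and *Ckm*, were at or above percentile 99.9 of the array over all samples.

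Promoter sequences are shown for the 4 member genes with the smallest adjusted p in BF vs. BG of LD. They set 2 genes that were higher in BF than in BG beside 2 that were lower. In their labels, higher or lower in flight refers to BF vs. BG only. In BF vs. FC of LD no probe set of *Hnrnpk*, *Hnrnpa1* or *Hnrnpc* passed (limma, smallest adjusted p of 0.373, 0.119 and 0.722). They run from 250 bases before to 50 bases after the start of the gene, 5′ to 3′ on the strand of the gene, and come from RefSeq on GRCm38.p6. Capitals mark the CCAAT box (CCAAT, or ATTGG where it lies on the reverse strand), the GC box GGGCGG and the TATA box TATAAA.
Hnrnpk, chr13:58402068-58402367, minus strand, higher in flight: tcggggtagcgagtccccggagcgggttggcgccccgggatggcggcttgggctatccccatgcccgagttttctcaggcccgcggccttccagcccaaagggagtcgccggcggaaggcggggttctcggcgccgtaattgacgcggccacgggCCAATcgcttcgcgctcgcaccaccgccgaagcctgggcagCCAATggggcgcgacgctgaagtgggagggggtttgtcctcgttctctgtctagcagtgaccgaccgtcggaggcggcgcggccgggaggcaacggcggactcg
Hnrnpa1, chr15:103240147-103240446, plus strand, higher in flight: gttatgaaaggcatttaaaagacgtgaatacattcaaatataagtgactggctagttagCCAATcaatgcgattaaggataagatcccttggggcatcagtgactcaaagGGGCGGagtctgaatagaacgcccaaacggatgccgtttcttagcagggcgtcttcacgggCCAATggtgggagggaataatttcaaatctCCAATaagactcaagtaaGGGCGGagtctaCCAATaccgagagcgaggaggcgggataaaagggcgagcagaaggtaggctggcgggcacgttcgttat
Hnrnpc, chr14:52103972-52104271, minus strand, lower in flight: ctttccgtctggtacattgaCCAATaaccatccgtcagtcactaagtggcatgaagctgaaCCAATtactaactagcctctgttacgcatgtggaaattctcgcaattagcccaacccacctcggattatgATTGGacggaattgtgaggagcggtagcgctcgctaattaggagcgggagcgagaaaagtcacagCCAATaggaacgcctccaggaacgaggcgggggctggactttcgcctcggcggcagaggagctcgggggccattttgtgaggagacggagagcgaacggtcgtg
Srsf3, chr17:29032410-29032709, plus strand, lower in flight: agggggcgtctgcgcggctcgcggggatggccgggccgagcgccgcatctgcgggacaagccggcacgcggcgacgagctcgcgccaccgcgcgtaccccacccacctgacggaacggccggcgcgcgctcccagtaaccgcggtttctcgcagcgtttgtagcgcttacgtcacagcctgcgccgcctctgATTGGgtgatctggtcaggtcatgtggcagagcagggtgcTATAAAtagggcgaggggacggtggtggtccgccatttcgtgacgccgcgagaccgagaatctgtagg

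*Hnrnpa1* and *Hnrnpc* each held 4 CCAAT boxes, *Hnrnpk* held 2 and *Srsf3* held 1. *Hnrnpa1* also held 2 GC boxes and *Srsf3* held 1 TATA box. Each motif was searched on both strands. Of the 27 genes, 25 matched the promoter table (*Hnrnpll* and *Hnrnpul2* did not) with 37 promoters, since a gene can have several starts. The GC box was in 30 of the 37 promoters (81.1%) and in 35.7% of all 32851 promoters in the table. The CCAAT box was in 19 (51.4%, against 37.4% of all), TATAAA in 4 (10.8%, against 13.6%), and the palindromic cyclic AMP response element TGACGTCA in 0 (against 1.79%). These are matches of letters in a window of 300 bases and say nothing on binding.

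In LD, 9 of the 18 hnRNP genes had at least 1 probe set that was higher in flown mice than in habitat controls. *Hnrnpc* and *Srsf3* each had at least 1 that was lower. Over all probe sets, 1026 of 12859 gene annotations (some of which name several genes) had at least 1 that was higher, and 711 at least 1 that was lower. A gene with more probe sets has more chances to be counted in this way. With 1 probe set per gene, the brightest, 7 of the 27 member genes were higher and 1 lower, beside 10.8% of all genes in either direction. In BF vs. BG 17 of the 78 probe sets were higher and 3 lower, which is 25.6% of the members beside 10.2% of all probe sets (6.41% higher and 3.83% lower). They belonged to 12 genes. Among the hnRNPs 15 of 50 probe sets were higher and 1 lower. Among the SR genes 2 of 28 were higher, both of *Srsf2*, and 2 lower, both of *Srsf3*. The median log2 change was 0.242 over the hnRNP probe sets, 0.0233 over the SR probe sets and -0.0276 over all probe sets. No member passed with a change of more than 2-fold, as 0.424% of all probe sets did, nor in FC vs. BG (0.203% of all) or in BF vs. FC (0.331% of all). For 14 members the 5 BF and 5 BG values did not overlap, as for 6.98% of all probe sets. In bulk muscle RNA, fewer cells of a type and less RNA per cell cannot be told apart. The count of 20 was 33 without BG replicate 5 (28 higher, 5 lower, beside 17.1% of all probe sets). It was 11 to 13 without any 1 of BF replicates 3, 4 and 5 or of BG replicates 1, 3 and 4. The share of all probe sets was then 5.62% to 8.29%. After quantile normalization within each muscle, 17 members were higher and 6 lower, beside 10.4% of all probe sets.

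**Figure D1:**
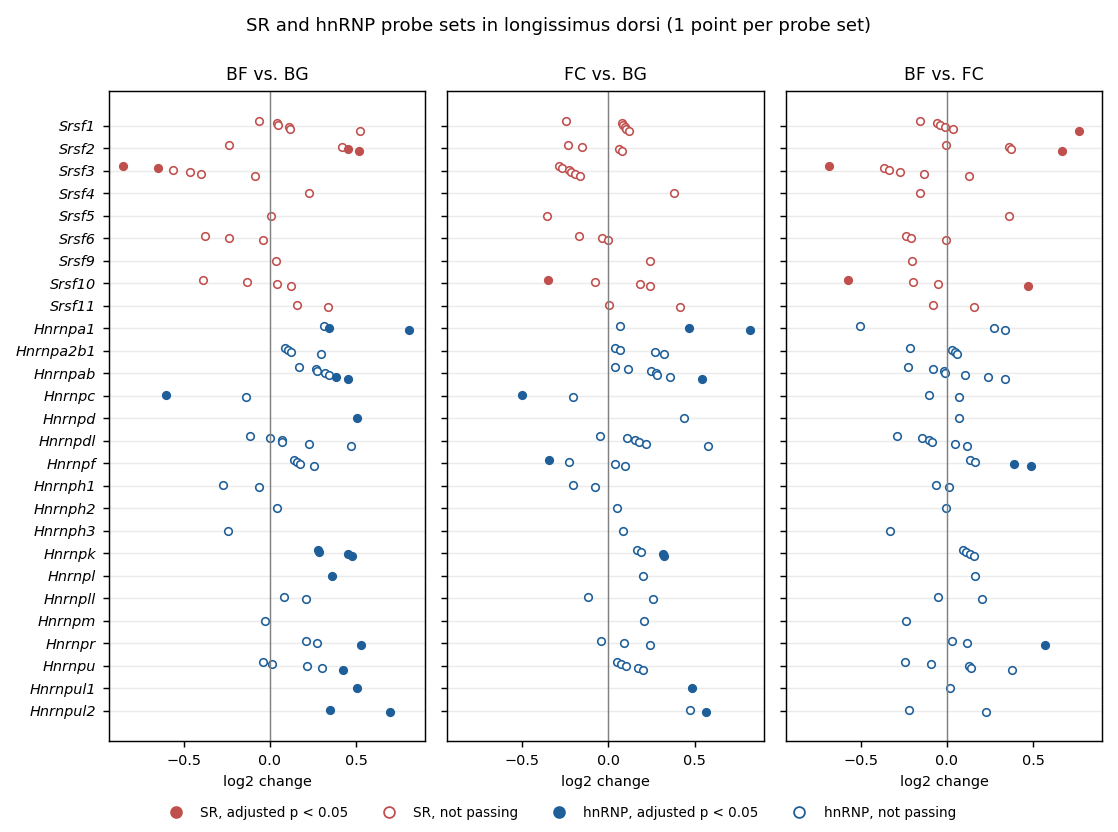
Log2 change of each SR (red) and hnRNP (blue) probe set in *longissimus dorsi*, by gene, for the 3 comparisons of housing (n = 5 arrays per group). Filled points passed at an adjusted p under 0.05. In BF vs. BG 15 hnRNP points on the right are filled, while the filled points on the left are 2 of *Srsf3* and 1 of *Hnrnpc*.

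*Hnrnpk* encodes a protein with KH domains that binds C-rich RNA and DNA. Its probe set 1423684_at was at 9.72, 9.63, 9.82, 9.74 and 9.57 in LD BF, at 9.02, 9.15, 9.31, 9.39 and 9.24 in BG and at 9.55, 9.71, 9.48, 9.57 and 9.4 in FC. All BF and all FC values lay above all BG values, while BF and FC overlapped. The log2 change was 0.48 (SE 0.0825, adjusted p = 0.000995) in BF vs. BG and 0.32 (SE 0.0825, adjusted p = 0.0189) in FC vs. BG. The second call was lost without BG replicate 1 or FC replicate 2 (adjusted p up to 0.0633). *Hnrnpk* was a member whose probe sets went together, since all 4 passed in BF vs. BG, with log2 changes of 0.28 (1448176_a_at), 0.29 (1454692_x_at) and 0.45 (1460547_a_at) for the other 3. Their mean levels spanned 5.89 to 11.4 on the log2 scale.

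*Hnrnpa1* encodes an abundant shuttling hnRNP that promotes exon skipping. Probe set 1436549_a_at was at 9.69, 9.24, 9.79, 9.61 and 9.52 in LD BF, at 8.8, 8.95, 8.58, 8.96 and 8.5 in BG and at 8.83, 9.83, 9.15, 9.21 and 9.13 in FC. Every BF value was above every BG value, and FC reached from the BG range up to 1 value above all of BF. This was the highest log2 change of a member in BF vs. BG, at 0.81 (SE 0.143, adjusted p = 0.00124), or 1.75-fold. In FC vs. BG it was 0.47 (SE 0.143, adjusted p = 0.0426). The second probe set, 1455305_x_at, was higher by less in BF vs. BG, at 0.34 (SE 0.0948, adjusted p = 0.0245), and was at 0.07 (SE 0.0948, adjusted p = 0.719) in FC vs. BG. The third, 1455740_at, was dim, with a mean of 4.40 (percentile 17.3 of the array). It was at 3.86, 4.58, 4.27, 4.1 and 4.09 in BF, at 3.66, 3.9, 3.82, 4.0 and 3.95 in BG and at 3.89, 4.86, 4.98, 5.09 and 4.6 in FC. Of its values 4 of 5 FC arrays were above all BG and BF arrays. It passed in FC vs. BG only among the LD comparisons, with a log2 change of 0.82 (SE 0.173, adjusted p = 0.00656).

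*Hnrnpl* encodes a protein that binds CA-rich stretches of introns and exons. Its only probe set (1424101_at) was at 8.79, 8.85, 8.92, 9.05 and 8.92 in BF, at 8.46, 8.49, 8.61, 8.59 and 8.58 in BG and at 8.48, 8.92, 8.74, 8.8 and 8.78 in FC. The BF values were all above the BG values, and FC overlapped both. The log2 change was 0.36 (SE 0.0818, adjusted p = 0.00754) in BF vs. BG.

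The scaffold-attachment type hnRNPs, *Hnrnpu* and its relatives *Hnrnpul1* and *Hnrnpul2*, bind both chromatin and RNA. *Hnrnpul2* probe set 1434551_at was at 9.33, 9.44, 9.37, 9.4 and 9.43 in BF, at 8.71, 9.1, 9.04, 8.93 and 9.46 in BG and at 9.44, 9.61, 9.75, 9.59 and 9.67 in FC. The highest BG value is replicate 5, and it alone made the groups overlap. The log2 change was 0.56 (SE 0.112, adjusted p = 0.00446) in FC vs. BG and 0.35 (SE 0.112, adjusted p = 0.0499) in BF vs. BG. The second *Hnrnpul2* probe set, 1415765_at, passed in BF vs. BG with 0.70 (SE 0.167, adjusted p = 0.0108). Its BG replicate 5 was at 7.36, above all BF values (7.14 to 7.28), while the other BG arrays were at 6.09 to 6.49. *Hnrnpul1* was higher in both groups than in BG, with 0.51 (SE 0.146, adjusted p = 0.0304) in BF vs. BG and 0.49 (SE 0.146, adjusted p = 0.0406) in FC vs. BG. Of the 5 *Hnrnpu* probe sets 1 passed in BF vs. BG, 1450849_at, with 0.43 (SE 0.136, adjusted p = 0.0484).

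*Hnrnpd* (AU-rich element decay), *Hnrnpr* and *Hnrnpab* made up the rest of the hnRNPs that were higher in BF than in BG. *Hnrnpd* had a log2 change of 0.51 (SE 0.151, adjusted p = 0.0355) in BF vs. BG. It was at 0.44 (adjusted p = 0.0703) in FC vs. BG and at 0.07 (adjusted p = 0.903) in BF vs. FC. No *Hnrnpab* probe set passed in BF vs. FC of LD (smallest adjusted p = 0.16). *Hnrnpr* probe set 1452030_a_at was at 6.76, 6.85, 6.41, 6.92 and 6.82 in BF, at 6.22, 6.27, 6.26, 5.77 and 6.58 in BG and at 6.02, 6.17, 6.28, 6.26 and 6.18 in FC. Here BF stood above FC without overlap, and above all BG arrays but replicate 5. Its log2 change was 0.53 (SE 0.128, adjusted p = 0.0114) in BF vs. BG and 0.57 (SE 0.128, adjusted p = 0.013) in BF vs. FC. The other 2 *Hnrnpr* probe sets did not pass in either comparison. *Hnrnpab* passed in 2 of 7 probe sets in BF vs. BG, 1448144_at with 0.45 (SE 0.127, adjusted p = 0.0264) and 1453849_s_at with 0.38 (SE 0.12, adjusted p = 0.0433), and all 7 had a positive log2 change there, from 0.17 to 0.45.

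*Hnrnpc*, whose product binds uridine tracts and packages nascent RNA, was the hnRNP that fell in LD in both groups relative to BG. Probe set 1460240_a_at was at 10.18, 10.4, 10.48, 10.37 and 10.35 in BF, at 10.94, 11.01, 10.85, 10.99 and 10.99 in BG and at 10.29, 10.29, 10.48, 10.68 and 10.54 in FC. The BG values lay within a narrow range above all BF and FC values, which overlapped each other. Its log2 change was -0.60 (SE 0.102, adjusted p = 0.000839) in BF vs. BG, the smallest adjusted p among the members, and -0.50 (SE 0.102, adjusted p = 0.0052) in FC vs. BG. The second probe set, 1418693_at, did not pass in LD, with -0.14 (SE 0.123, adjusted p = 0.529) in BF vs. BG.

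**Figure D2:**
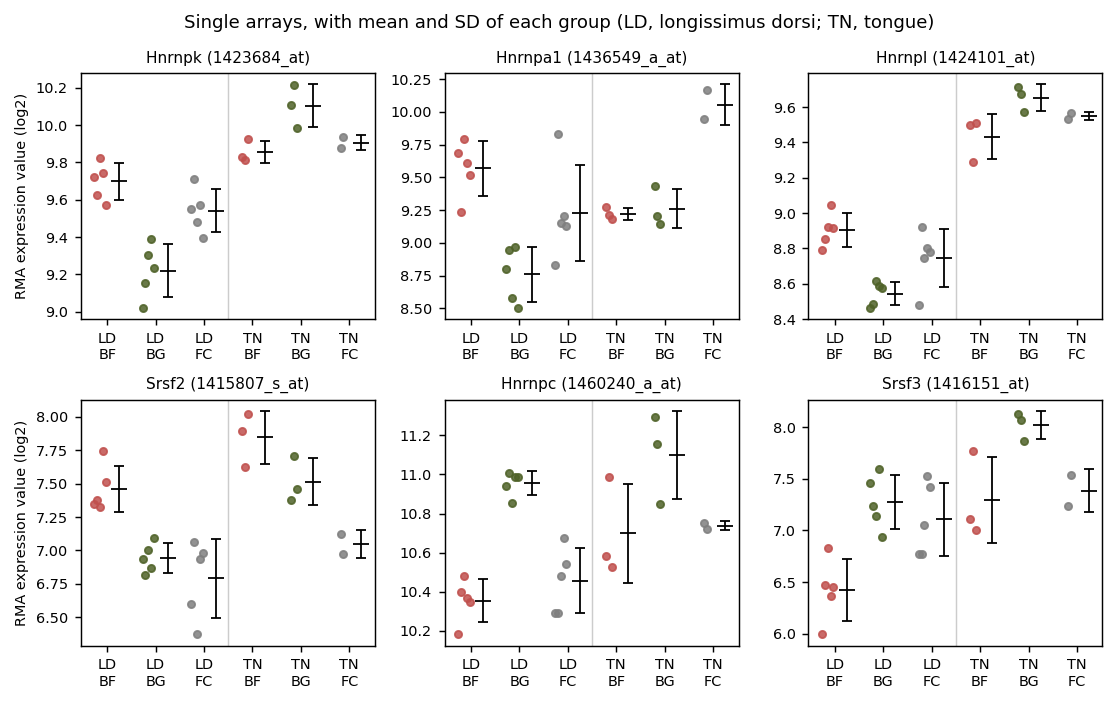
RMA expression value (log2) of 6 probe sets in each array, by muscle and housing (points), and the mean with its SD per group (black). In *longissimus dorsi* the BF points of *Hnrnpk*, *Hnrnpa1*, *Hnrnpl* and *Srsf2* lie above all BG points, and those of *Hnrnpc* and *Srsf3* below them, with 5 arrays in each group.

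Among the SR genes, *Srsf3* encodes the smallest SR protein, which also acts in mRNA export and polyadenylation. Probe set 1416151_at was at 5.99, 6.47, 6.83, 6.37 and 6.45 in LD BF, at 7.46, 7.24, 7.14, 7.6 and 6.94 in BG and at 6.78, 6.77, 7.05, 7.53 and 7.42 in FC. BF lay below BG without overlap, and FC spanned from the upper BF range to the BG range. This was the lowest log2 change of a member in BF vs. BG, at -0.85 (SE 0.176, adjusted p = 0.00398), or 1.80-fold lower. In BF vs. FC it was -0.69 (SE 0.176, adjusted p = 0.029), a call lost without any 1 of BF replicates 1, 4 and 5 or FC replicates 3, 4 and 5, or without moderation of the variance (adjusted p up to 0.081). Probe set 1454993_a_at also fell in BF vs. BG, at -0.65 (SE 0.172, adjusted p = 0.0194). The other 4 probe sets of *Srsf3* had log2 changes from -0.56 to -0.09 in BF vs. BG and did not pass.

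*Srsf2* encodes a nuclear speckle protein that binds exonic enhancers. Probe set 1415807_s_at was at 7.35, 7.38, 7.33, 7.74 and 7.51 in BF, at 6.94, 6.81, 7.01, 6.87 and 7.09 in BG and at 6.6, 7.06, 6.37, 6.94 and 6.98 in FC. Flown mice were above both ground groups without overlap, and the ground groups overlapped. The log2 change was 0.52 (SE 0.123, adjusted p = 0.0102) in BF vs. BG and 0.67 (SE 0.123, adjusted p = 0.00322) in BF vs. FC. Probe set 1452439_s_at passed in BF vs. BG with 0.45 (SE 0.109, adjusted p = 0.0109), and was at 0.37 (SE 0.109, adjusted p = 0.0596) in BF vs. FC.

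In FC vs. BG of LD, the ground comparison of facility and habitat housing, 7 members were higher and 3 lower (12.8% of members beside 8.95% of all probe sets, of which 6.79% were higher and 2.16% lower), of 8 genes. This share was near that of all probe sets, and 5 members did not overlap between the groups, beside 5.76% of all. The 2 comparisons against BG share the BG arrays. The median log2 change was 0.0928 over the members and -0.0102 over all probe sets. Over the hnRNP probe sets it was 0.17, and 7 of 50 were higher and 2 lower. Over the SR probe sets it was -0.0209, and 0 of 28 were higher and 1 lower. Besides the genes above, the dim *Hnrnpab* probe set 1459880_at was at 4.15, 4.32, 4.2, 4.07 and 4.02 in BF, at 3.78, 3.79, 3.75, 3.91 and 3.93 in BG and at 4.3, 4.52, 4.43, 4.49 and 4.16 in FC. It had the smallest adjusted p of a member there, with a log2 change of 0.55 (SE 0.105, adjusted p = 0.00375). All FC values were above all BG values, but the mean of this probe set was 4.27, at percentile 15.5 of the array. *Hnrnpf*, whose product binds G-rich runs next to splice sites, fell in FC vs. BG at probe set 1423382_a_at, with -0.35 (SE 0.093, adjusted p = 0.0242). That call was lost without BG replicate 1 or 4, or FC replicate 1 or 2. *Srsf10* probe set 1418527_a_at fell as well, with -0.35 (SE 0.105, adjusted p = 0.039). The count of 10 was 19 without BG replicate 5 (17 higher, 2 lower, beside 16.2% of all probe sets). It was 4 when BG replicate 1 was left out (beside 4.48%) and 5 when FC replicate 2 was (beside 4.78%). It was 6 when replicate 3 of BG or of FC was left out (beside 8.31% and 4.44%). Leaving out FC replicate 1 gave 12 higher and 1 lower (beside 8.56% of all probe sets). The split was 5 higher and 4 lower after quantile normalization within each muscle (beside 7.52%). With array medians centred it was 4 higher and 3 lower (beside 8.07%).

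In BF vs. FC of LD, flown against facility mice, 6 members were higher and 2 lower (10.3% beside 3.66% of all probe sets, 2.06% higher and 1.6% lower), and 8 members did not overlap, beside 5.16% of all. Among the hnRNPs 3 of 50 probe sets were higher and 0 lower, with a median log2 change of 0.0535. Among the SR genes 3 of 28 were higher and 2 lower, with a median of -0.0537. Over all probe sets the median was -0.0259. Without FC replicate 1 the split of the members was 5 higher and 5 lower, beside 3.53% of all probe sets. The median log2 change of the members then went from 0.0181 to -0.0341. *Srsf2*, *Srsf3* and *Hnrnpr* are given above. *Hnrnpf* was higher in BF than in FC at 2 of its 4 probe sets. Probe set 1423382_a_at was at 8.79, 8.81, 9.09, 8.81 and 8.65 in BF, at 8.69, 8.6, 8.57, 8.79 and 8.79 in BG and at 8.21, 8.28, 8.39, 8.55 and 8.28 in FC. The FC arrays were below all BF and BG arrays. The log2 change was 0.49 (SE 0.093, adjusted p = 0.0045) for this probe set and 0.39 (SE 0.0841, adjusted p = 0.0101) for 1450963_at. *Srsf1*, the founding SR protein, had 1 passing probe set of 6, 1452430_s_at. It was at 7.87, 8.04, 7.92, 7.98 and 7.82 in BF, at 6.83, 7.18, 7.38, 7.47 and 8.15 in BG and at 6.48, 7.23, 6.99, 7.44 and 7.63 in FC. BF arrays were tightly grouped above FC, and BG overlapped both. Its log2 change was 0.77 (SE 0.192, adjusted p = 0.0252), which did not pass without BF replicate 2 or 4, without FC replicate 1 or 3, without moderation of the variance, or with LD fitted alone (adjusted p up to 0.0718). With 1 probe set per gene, the brightest, 0 of the 27 genes passed in this comparison (limma), beside 2.86% of all genes. The brightest probe sets were not those that passed, and the next paragraph takes up that disagreement.

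Probe sets of the same gene disagreed in several members. For each of the 120 pairs of member probe sets that share a gene (18 genes), the difference of their log2 changes was tested with limma within arrays, with p adjusted over all 12821 such pairs on the array. Each difference is given as the probe set of lower number minus that of higher number. The pairs of 1 gene share their probe sets and are not independent. In BF vs. BG of LD 5 member pairs differed (4.17%, beside 2.43% of all pairs), in FC vs. BG 7 (5.83%, beside 5.32%) and for BF vs. FC 19 (15.8%, beside 7.88%). The suffix _s_at marks probes shared by several transcripts and _x_at probes that may cross-hybridize. Which exons the probe sets read was not analysed here.

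*Srsf10*, which encodes a splicing repressor when dephosphorylated, showed opposite changes that both passed. In BF vs. FC, 1418527_a_at was higher with 0.47 (SE 0.105, adjusted p = 0.0121) and 1449121_at lower with -0.57 (SE 0.128, adjusted p = 0.0126). The first was at 6.43, 6.63, 6.75, 6.56 and 6.77 in BF, at 6.49, 6.33, 6.54, 6.45 and 6.73 in BG and at 6.02, 6.28, 5.98, 6.22 and 6.27 in FC. The second was at 7.46, 7.8, 7.61, 7.38 and 7.25 in BF, at 8.0, 7.85, 7.8, 7.7 and 8.08 in BG and at 7.62, 7.91, 8.06, 8.41 and 8.35 in FC. Their changes differed by 1.04 (SE 0.14, adjusted p = 0.000234), the smallest adjusted p of a member pair in that comparison. The other 2 *Srsf10* probe sets lay between, at -0.05 (1418526_at) and -0.20 (1423982_at).

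For *Srsf1*, 1452430_s_at differed from each of the other 5 probe sets in BF vs. FC. The changes of those 5 ranged from -0.16 to 0.04, and the smallest adjusted p of a *Srsf1* pair was 0.000931. For *Srsf2*, 1427816_at had a log2 change of -0.24 in BF vs. BG and differed there from 1415807_s_at by 0.76 (SE 0.158, adjusted p = 0.0144) and from 1452439_s_at by -0.69 (SE 0.153, adjusted p = 0.0191). For *Srsf3*, 1416151_at and 1438215_at differed in BF vs. BG by -0.76 (SE 0.169, adjusted p = 0.0191). The 2 *Hnrnpc* probe sets, both negative in BF vs. BG, differed by 0.46 (SE 0.104, adjusted p = 0.0206). The bright *Hnrnpa1* probe sets, both higher, differed by 0.47 (SE 0.124, adjusted p = 0.0477).

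In FC vs. BG the *Hnrnpf* probe sets split, with 1423382_a_at lower and 1437099_x_at at 0.09, a difference of -0.44 (SE 0.101, adjusted p = 0.0183). *Srsf11* and *Hnrnpll* each held a pair that differed in FC vs. BG although no probe set of theirs passed in a comparison of housing. *Srsf11* was at 0.42 (1427269_at) and 0.00 (1452371_at), a difference of 0.41 (SE 0.118, adjusted p = 0.0445). *Hnrnpll*, known for exon skipping in T cells, was at -0.12 (1425255_s_at) and 0.26 (1427144_at), a difference of -0.38 (SE 0.0993, adjusted p = 0.0294). In BF vs. FC pairs of *Hnrnpu*, *Hnrnpab* and *Hnrnpr* also differed, with adjusted p of 0.0331, 0.0447 and 0.0474.

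**Figure D3:**
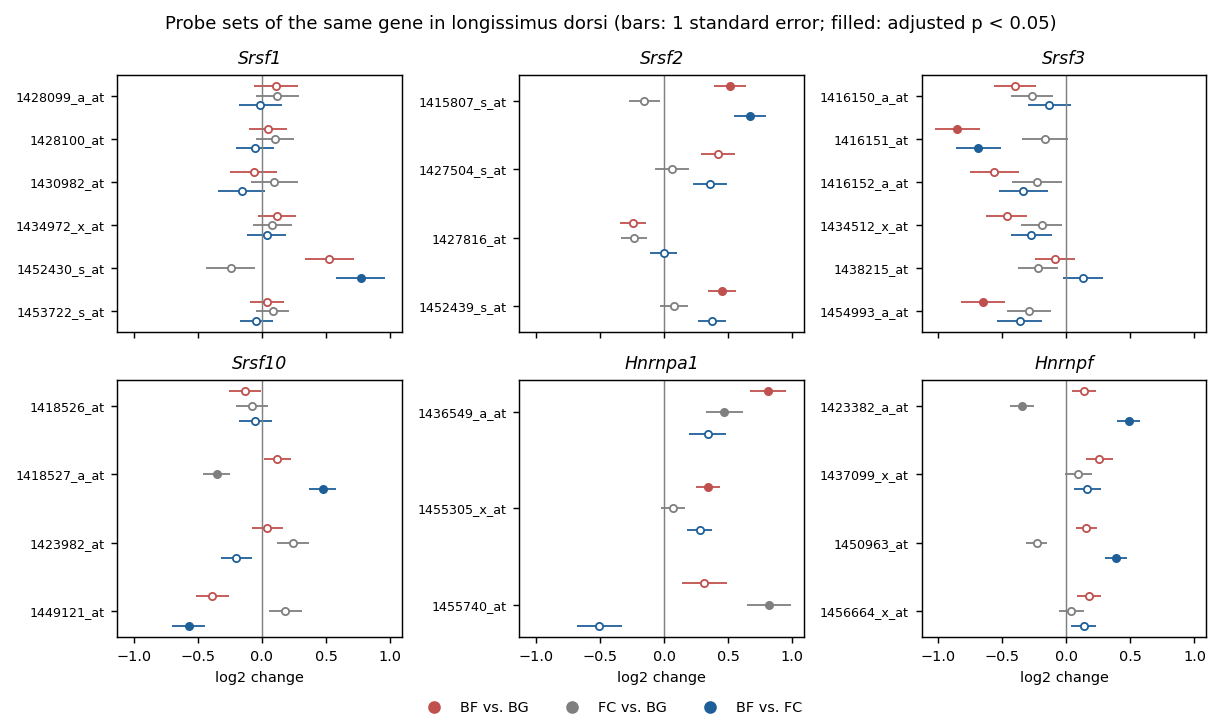
Log2 change of every probe set of 6 genes in *longissimus dorsi*, with red for BF vs. BG, grey for FC vs. BG, blue for BF vs. FC and bars of 1 standard error; filled points passed at an adjusted p under 0.05. The blue points of *Srsf10* reach from -0.57 to 0.47, and 1452430_s_at of *Srsf1* stands at 0.77 while the other 5 lie between -0.16 and 0.04.

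The members that passed in no comparison of housing in either muscle, without a replicate block, were *Hnrnpa2b1*, *Hnrnpdl*, *Hnrnph1*, *Hnrnph2*, *Hnrnpll*, *Hnrnpm*, *Srsf5*, *Srsf6*, *Srsf9* and *Srsf11*, which is 10 of the 27 genes. *Hnrnpa2b1*, the partner of *Hnrnpa1* in the core hnRNP particle, had 4 probe sets with log2 changes from 0.09 to 0.30 in BF vs. BG of LD. *Hnrnpdl* was the most spread, with 6 probe sets from -0.12 to 0.47 there. The brightest members on the array included *Hnrnpdl* (1424251_a_at, mean 11.8) and *Hnrnpa2b1* (1420365_a_at, mean 11.5). *Srsf5* was at -0.35 (SE 0.192, adjusted p = 0.263) in FC vs. BG and *Srsf6* at -0.38 (SE 0.146, adjusted p = 0.106) in BF vs. BG at its lowest probe set (1448454_at).

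In tongue no member passed in BF vs. BG (limma), beside 0.826% of all probe sets, while 24 of the 78 had an unadjusted p under 0.05 (30.8%, beside 15.4% of all probe sets). The 3 pairs of BF and BG arrays with the same number deviated together (r of 0.167 to 0.383). The labels state no such pairing, so a block by number was chosen from these data. With the replicate number as a block 4 members fell (beside 2.35% of all probe sets), *Hnrnpc* 1418693_at at -0.62 (SE 0.116, adjusted p = 0.014), *Hnrnpdl* 1420093_s_at at -0.48 and 1428224_at at -0.92, and *Srsf11* 1427269_at at -0.55 (SE 0.137, adjusted p = 0.0465). Without moderation of the variance the count was also 0 (beside 0.482% of all probe sets). With array weights it was 14, of which 13 were lower (beside 8.13% of all). Leaving out BF replicate 2 gave 6 (beside 4.72% of all probe sets) and leaving out BG replicate 3 gave 2 (beside 2.12%). Leaving out LD BF replicate 1 or LD BG replicate 5 gave 1 (beside 0.747% and 1.61%). Those 2 arrays enter the shared estimate of the spread. The median log2 change of the members was -0.154, with 22 of 78 above 0, while that of all probe sets was 0.0185. The smallest adjusted p belonged to *Hnrnpc* (1418693_at) with a log2 change of -0.62 (SE 0.159, adjusted p = 0.0622) and to *Hnrnpdl* (1420093_s_at) with -0.48 (SE 0.123, adjusted p = 0.0643). *Hnrnpc* 1418693_at was at 7.64, 7.92 and 7.62 in BF, at 8.5, 8.5 and 8.05 in BG and at 7.65 and 7.87 in FC. The 8 markers of dividing cells, which tongue epithelium holds, had a summed linear level of 500 to 915 in BF, 938 to 1750 in BG and 788 to 808 in FC. Their part in the tongue values was not tested.

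In FC vs. BG of tongue 8 members were higher and 4 lower (15.4% beside 9.45% of all probe sets, 5.13% higher and 4.33% lower). In BF vs. FC 1 was higher and 3 lower (5.13% beside 2.24%, 1.16% higher and 1.08% lower). These comparisons share the 2 FC arrays, so precision is low. The split of the first turned to 9 higher and 13 lower with array weights (beside 21.1% of all probe sets). It was 5 and 6 among the brighter probe sets (beside 17.2%), and 8 and 10 with the replicate block (beside 14%). The first count dropped to 6 and 2 when BG replicates 1 and 2 were left out in turn (beside 5.95% and 2.96%). The second dropped to 2 without BF replicate 3 (beside 1.33%), and was 7 without LD BG replicate 5 (beside 3.69%). Leaving out either FC array lowered both counts, and leaves that group without replication. *Hnrnpab* 1459880_at was at 4.74, 4.04 and 4.32 in BF, at 4.27, 4.23 and 4.27 in BG and at 5.35 and 5.15 in FC. *Hnrnpa1* 1455740_at was at 4.16, 4.27 and 4.58 in BF, at 4.64, 4.33 and 4.18 in BG and at 5.64 and 5.72 in FC. By group mean, both dim probe sets were highest in FC, as in LD. The log2 change in FC vs. BG was 0.99 (SE 0.151, adjusted p = 0.000496) for *Hnrnpab* and 1.30 (SE 0.249, adjusted p = 0.00309) for *Hnrnpa1*, the 1 member with a change over 2-fold there (2.46-fold, beside 1.35% of all probe sets) and in BF vs. FC (2.54-fold, beside 0.654% of all). Against FC, the log2 changes in BF were -0.88 (SE 0.151, adjusted p = 0.00295) and -1.35 (SE 0.249, adjusted p = 0.00516). Among the other *Hnrnpab* probe sets, the brighter 1415914_at, 1426114_at, 1448144_at and 1453849_s_at were at 0.21, -0.01, -0.26 and -0.03 in FC vs. BG. Each differed from 1459880_at there (limma on pairs, adjusted p up to 0.0154) and in BF vs. FC (up to 0.032). The dim 1431349_at was at 0.61 in FC vs. BG, and the bright 1455855_x_at at -0.57 in BF vs. FC. Of the bright *Hnrnpa1* probe sets, 1436549_a_at was at 9.27, 9.21 and 9.18 in BF and at 9.43, 9.21 and 9.14 in BG. Its FC arrays were at 9.94 and 10.16, with 0.79 (SE 0.207, adjusted p = 0.019) in FC vs. BG. The other bright probe set, 1455305_x_at, did not share this change and was at -0.01 there. Against FC, the log2 changes of these probe sets in BF were -0.83 and -0.05. In both comparisons 1455305_x_at differed from 1436549_a_at and from the dim 1455740_at (limma on pairs, adjusted p up to 0.00783).

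*Srsf4*, a large SR protein, was at 8.56, 8.2 and 8.36 in tongue BF, at 8.32, 8.09 and 8.17 in BG and at 9.04 and 8.82 in FC. Its log2 change in FC vs. BG was 0.74 (SE 0.181, adjusted p = 0.0143). *Hnrnph3* was at 8.18, 7.96 and 8.13 in BF, at 8.0, 7.75 and 7.79 in BG and at 8.48 and 8.32 in FC. Its log2 change in FC vs. BG was 0.55 (SE 0.141, adjusted p = 0.0175). In both genes the 2 FC values were the highest of the tongue arrays. *Hnrnpul2* was higher at both probe sets, at 0.62 and 0.79. *Hnrnpf* 1450963_at fell with -0.44 (SE 0.121, adjusted p = 0.024), while 1456664_x_at was at 0.20 and differed from it (limma on pairs, adjusted p = 0.0145). *Srsf3* fell at 1416152_a_at with -0.96 (SE 0.281, adjusted p = 0.0338) and at 1454993_a_at with -0.85 (SE 0.248, adjusted p = 0.0338). Its 1438215_at was at 0.01 and differed from the first (limma on pairs, adjusted p = 0.0241). *Hnrnpc* 1418693_at fell with -0.59 (SE 0.178, adjusted p = 0.0378). The higher value of BF over FC was *Srsf2* 1415807_s_at, at 7.89, 7.63 and 8.02 in BF, at 7.38, 7.71 and 7.46 in BG and at 7.12 and 6.98 in FC. Its log2 change was 0.79 (SE 0.177, adjusted p = 0.0176). The *Srsf2* probe sets 1427504_s_at, 1427816_at and 1452439_s_at were at -0.20, 0.06 and 0.11 in BF vs. FC. Each differed from 1415807_s_at (limma on pairs, adjusted p up to 0.0402). Of the 9 tongue calls with the smallest adjusted p per gene, 8 were lost without FC replicate 1, all but *Hnrnpab* in FC vs. BG (adjusted p up to 0.23). Pairs of probe sets differed in 19 cases in FC vs. BG (15.8%, beside 8.56% of all pairs), in 25 in BF vs. FC (20.8%, beside 11.3%) and in 0 in BF vs. BG (beside 0.289%). *Srsf1* 1452430_s_at again stood apart in BF vs. FC, at 0.88 beside -0.52 for 1428099_a_at, a difference of -1.40 (SE 0.256, adjusted p = 0.00142). *Hnrnpdl* held such a pair too, with 1424251_a_at at -0.37 and 1449039_a_at at 0.33.

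**Figure D4:**
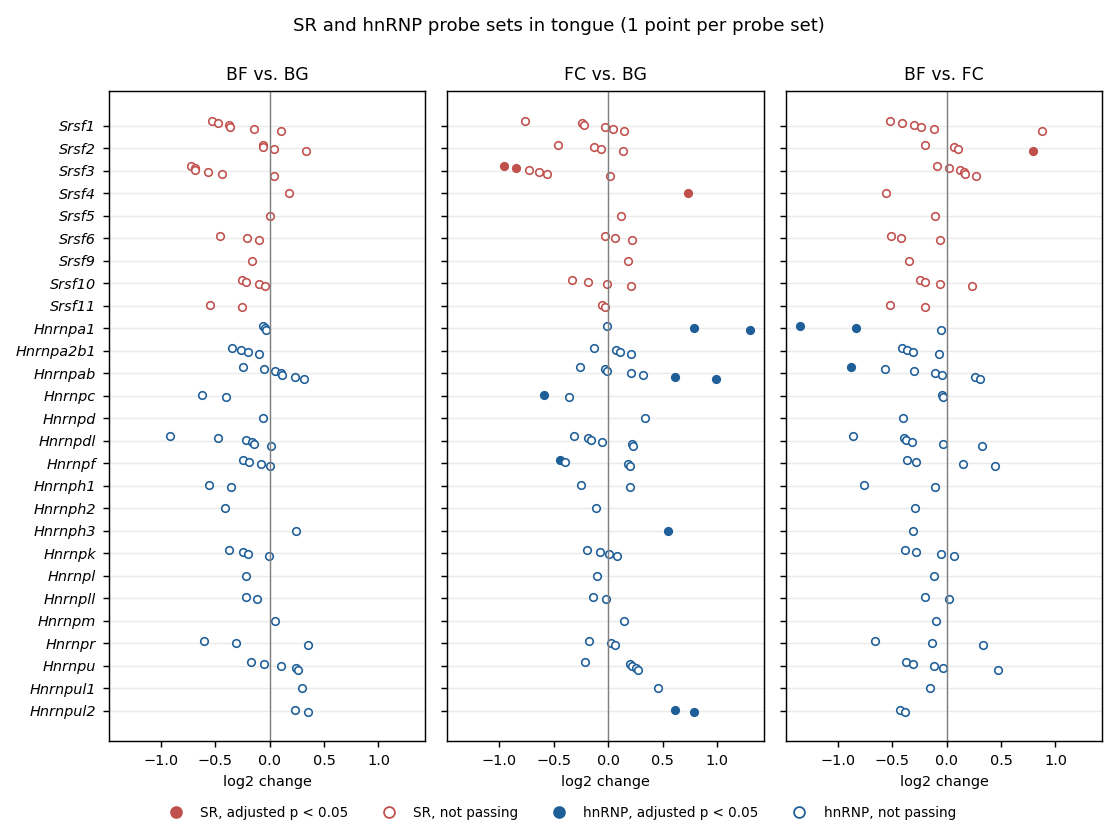
Log2 change of each SR (red) and hnRNP (blue) probe set in tongue, by gene, for the 3 comparisons of housing (3 BF, 3 BG and 2 FC arrays). Filled points passed at an adjusted p under 0.05; no point is filled in BF vs. BG, and the *Hnrnpa1* point farthest from 0 is at 1.30 in FC vs. BG, and at -1.35 for BF vs. FC.

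The change in BF vs. BG of 1 member differed between the muscles. The change of *Hnrnpk* 1423684_at in BF vs. BG was 0.48 in LD and -0.25 in tongue, where the BF arrays were at 9.83, 9.81 and 9.93 and the BG arrays at 10.11, 10.22 and 9.99. The difference of the 2 changes was 0.73 (SE 0.135, adjusted p = 0.0287), and 0.172% of all probe sets passed this test, while no pair of probe sets differed in it (0% of all pairs). Over 32 alternatives it stayed positive, from 0.59 to 0.78, with an adjusted p from 0.00461 to 0.13. The call was lost under 10 of them: quantile normalization within each muscle, and leaving out LD BF replicate 3 or 4, LD BG replicate 1, 2 or 3, TN BF replicate 1 or 3, or TN BG replicate 1 or 2. Next were *Hnrnpk* 1448176_a_at, *Hnrnpl* and *Hnrnpk* 1460547_a_at, with differences of 0.65, 0.58 and 0.65 and adjusted p of 0.0661, 0.0752 and 0.0798. For 67 of the 78 members the difference was above 0, with a median of 0.221, beside -0.0303 over all probe sets. Without LD BG replicate 5, 8 members passed (beside 1.66% of all probe sets). The FC arrays do not enter this difference. For *Hnrnpk* 1423684_at the tongue FC arrays were at 9.88 and 9.94, also below all tongue BG arrays. In LD all its FC values were above all BG values, with a log2 change of 0.32 in FC vs. BG. BF and FC overlapped in both muscles. The part of the BG arrays in the difference was not tested.

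Between the muscles, most members were lower in LD than in tongue. The mean of BG and FC in LD was set against that in tongue, and 46 of the 78 probe sets were lower in LD and 6 higher, beside 22.9% and 41.4% of all probe sets. In either direction the share was 66.7%, near the 64.3% of all, and 7 members differed by more than 2-fold, beside 13.9% of all. Every passing SR probe set was lower in LD, 22 of 28. Among the hnRNPs 24 were lower and 6 higher. The median log2 difference, LD minus tongue, was -0.515 over the SR probe sets, -0.298 over the hnRNP probe sets and 0.155 over all probe sets. With array medians centred it was -0.346 over the members and 0.252 over all. The 7 oral epithelium markers were all lower in LD, with a summed linear level of 285 to 399 in LD and 61900 to 76300 in tongue. Of the 8 markers of dividing cells 7 were lower in LD, with a summed level of 219 to 298 there. Tongue samples thus held epithelium, whose part in these differences was not tested.

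*Srsf1* and *Hnrnpf* held the probe sets that differed most. *Hnrnpf* 1456664_x_at ranged from 10.13 to 10.71 over the 15 LD arrays and from 11.24 to 11.7 over the 8 tongue arrays, a difference of -1.18 (SE 0.0831, adjusted p = 2.69e-11). *Srsf1* 1428099_a_at ranged from 8.88 to 9.98 in LD and from 9.93 to 10.86 in tongue, a difference of -1.27 (SE 0.148, adjusted p = 1.18e-07). *Srsf9* (1417727_at) ranged from 7.54 to 8.33 in LD and from 8.61 to 9.23 in tongue, a difference of -1.13 (SE 0.105, adjusted p = 3.15e-09). For *Hnrnpf* and *Srsf9* the muscles did not overlap over all 23 arrays. For *Srsf1* the highest LD array (BG replicate 5) lay above the lowest tongue array, a BF array. *Hnrnpl* differed by -0.96 (SE 0.0718, adjusted p = 8.58e-11), *Hnrnpk* 1448176_a_at by -0.84 (SE 0.0775, adjusted p = 2.93e-09) and *Hnrnpab* 1415914_at by -0.72 (SE 0.0782, adjusted p = 3.78e-08). *Srsf5* also differed by more than 2-fold, at -1.16, as did *Hnrnpr* 1437526_x_at at -1.14. The members that were higher in LD were 3 probe sets of *Hnrnpdl*, and 1 each of *Hnrnph3*, *Hnrnpc* and *Hnrnpll*. *Hnrnpdl* was led by 1449039_a_at, with 0.75 (SE 0.0883, adjusted p = 1.34e-07). The *Hnrnpc* probe sets opposed each other, at 0.25 (SE 0.108, adjusted p = 0.0445) for 1418693_at and -0.21 (SE 0.0892, adjusted p = 0.0402) for 1460240_a_at. Pairs of 15 genes differed, 53 of 120 (44.2%, beside 47.3% of all pairs), a share near that of the array. Within *Srsf1* the difference between the muscles ran from -1.27 to -0.31 (1452430_s_at) and within *Hnrnpk* from -0.84 to -0.14 (1454692_x_at). *Hnrnpul2* was at -0.99 (1415765_at) and 0.06 (1434551_at), and *Hnrnpdl* ran from -0.55 (1428224_at) to 0.75. In each of these genes the lowest and highest probe sets differed (limma on pairs, adjusted p up to 0.000223).

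**Figure D5:**
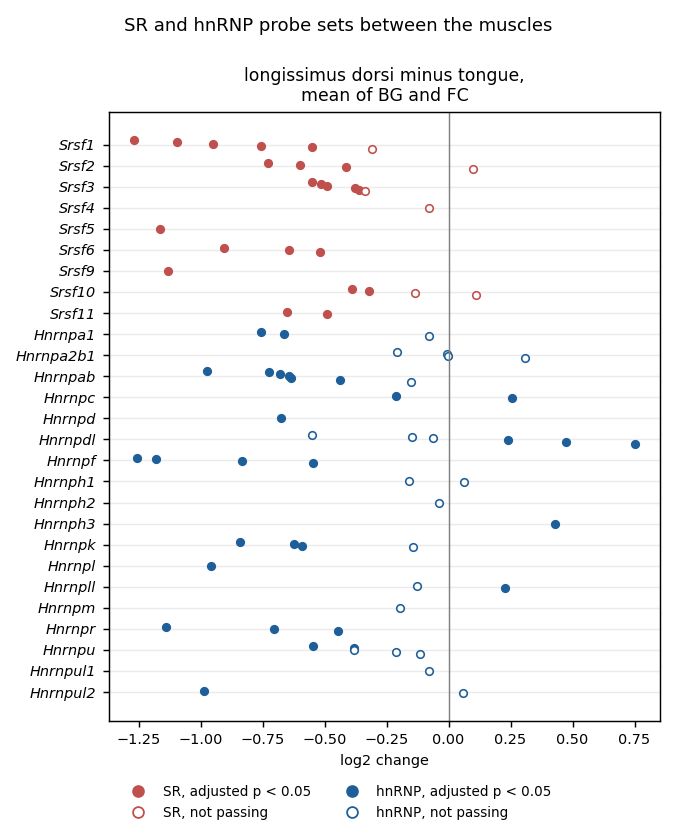
Log2 difference of each SR (red) and hnRNP (blue) probe set between *longissimus dorsi* and tongue, by gene, over the BG and FC arrays (10 arrays of *longissimus dorsi*, 5 of tongue). Points left of 0 were lower in *longissimus dorsi*; filled points passed at an adjusted p under 0.05, and the SR points among them lie between -1.27 and -0.32.

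Related splicing genes were read from lists, with the brightest probe set of each gene and p adjusted over all probe sets. The lists were chosen with earlier results of these data known, so their counts are a description and not a test. Of the brightest probe sets of all 12393 genes, 6.06% were higher and 4.48% lower in BF vs. BG of LD, with a median log2 change of -0.0368, and 8.07% were higher and 2.19% lower in FC vs. BG. In BF vs. BG of LD, 4 of 17 SR-related factors were higher and 0 lower, with a median log2 change of 0.205. They were *Scaf11* (0.55), *Srrm1* (0.52), a coactivator that bridges SR proteins, *Thrap3* (0.52) and *Luc7l2* (0.34). Of 15 measured hnRNP relatives 4 were higher, *Rbmx* (0.52), *Ewsr1* (0.48), *Dazap1* (0.49) and *Pcbp1* (0.36), the last a C-rich RNA binder like *Hnrnpk*. Of 9 measured muscle splicing regulators 3 were higher, *Rbfox1* (0.58), *Celf1* (0.37) and *Qk* (0.34), which set muscle-type exon choice. Of 12 SR kinases and import factors *Clk2* (0.32) was higher. Of 29 measured core spliceosome genes 2 were higher, *Sf3a2* (0.60) and *Prpf6* (0.37), and 2 lower, *Lsm3* (-0.90) and *Snrpg* (-0.60), which encode ring proteins of the spliceosomal snRNPs. Of 4 measured genes of nonsense-mediated decay *Upf1* (0.54), the central helicase of that pathway, was higher. The values in parentheses are log2 changes. For the core spliceosome (4 of 29) and the SR kinases and import factors (1 of 12) the counts were near the share of all genes. In FC vs. BG the counts were 5, 4, 2 and 2 higher, 0 lower, for the first 4 lists in this order. They were 4 higher and 1 lower for the core spliceosome, and 3 higher for nonsense-mediated decay. In BF vs. FC of LD, 1 of the 12 SR kinases and import factors was higher and 1 of the 9 muscle splicing regulators lower. The other lists had 0 higher and 0 lower there.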

How the data were processed

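The authors hybridized biotin-labelled RNA (3′ IVT Express protocol) to Affymetrix arrays and deposited log2 expression values per probe set, made with RMA (background correction, quantile normalization, median polish) in Partek Genomics Suite 6.6. RMA shrinks changes of dim probe sets, and array number limits the precision. The deposited values (2.24 to 14.5, 22626 probe sets, 23 arrays, 0 control probe sets) were used as they are, with no filter. No 2 arrays were duplicates (highest r 0.99612). Genes were named from the platform annotation: 20380 probe sets name 1 gene, 691 several and 1555 none.

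The labels gave the muscle and housing of each sample. A linear model of 6 groups (17 residual degrees of freedom) was fitted in limma 3.58.1 under R 4.3.3 (eBayes, prior degrees of freedom 5.12) for 8 comparisons, with p adjusted over all probe sets by the Benjamini-Hochberg method. The methods of the study name ANOVA, which was run as contrasts without moderation. Pairs of probe sets of a gene were tested on within-array differences. The procedure was tested on simulated data. Replicate numbers were taken to pair the samples only where every same-numbered pair of arrays had an r of deviations over 0.1, as in BF vs. BG of tongue (3 of 3 pairs, chosen from the data and not stated in the labels). Each p-value sets a difference between groups against the spread of these samples within groups, pooled over the 6 groups.

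The members and lists were chosen with earlier results of these data known. All member genes could be named. Values in every array were given for up to 6 member genes with the smallest adjusted p per comparison, and for some with disagreeing probe sets. From each list up to 4 genes that passed in BF vs. BG of LD were named. A planned look at protein sequence features was not run, since protein sequences were not used here. Alternatives were each muscle alone, no moderation, trend and robust moderation, brighter probe sets, quantile normalization within muscle, median centring, array weights, replicate blocks, 1 probe set per gene and leaving out each array. Leaving out the array of widest spread in each LD group was chosen after seeing the data.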

Additional observations from a re-analysis of the deposited data

Results flagged for a closer look

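Of 63 groups of 5 arrays tested for a sample far from the others, 2 held one, and chance alone gives about 1 in 20. Both were the highest value of LD BG and both belonged to replicate 5, the array with the widest spread. *Hnrnpf* 1456664_x_at was at 10.7 there and at 10.1 to 10.3 in the other 4 arrays, and *Hnrnpab* 1415914_at was at 10.6 there and at 10.1 to 10.3 in the others. The share of the range taken by the gap was 0.722 and 0.731. The summed macrophage marker level of that array was 21400, and its part in these values was not tested.

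The change of *Hnrnpk* 1423684_at in BF vs. BG differed between the muscles, by 0.726 on the log2 scale (limma, adjusted p = 0.0287), with a positive change in LD and a negative one in tongue.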

How the results depend on the processing

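The counts below are member probe sets that passed, and no named log2 change reversed under any alternative. A percentage in parentheses is the share of all probe sets that passed under the same setting. With 1 probe set per gene it is the share of all genes. Of 34 named members in their comparisons, 21 kept the call under all alternatives and 13 lost it in at least 1. BF vs. BG of LD (20, 10.2%) gave 13 (7.76%) with LD fitted alone and 37 (22.5%) with array weights. It gave 32 (16.4%) when the widest array per LD group was left out and 8 of 27 (10.8%) with 1 probe set per gene. Leaving out each array gave 11 (6.32%) to 33 (17.1%). FC vs. BG of LD (10, 8.95%) gave 17 (13.3%) with array weights, 22 (15.2%) without the widest arrays and 4 (11.4%) with 1 probe set per gene. Leaving out arrays gave 4 (4.48%) to 19 (16.2%). BF vs. FC of LD (8, 3.66%) gave 13 (7.39%) with weights and 0 (2.86%) with 1 probe set per gene. It gave 12 (4.14%) without the widest arrays, 6 higher and 6 lower. Leaving out arrays gave 6 (2.1% without BF replicate 4) to 10 (4.98% without BG replicate 5). Without FC replicate 1 it gave 5 higher and 5 lower (3.53%). BF vs. BG of tongue (0, 0.826%) gave 14 (8.13%) with weights and 2 (1.85%) without the widest arrays. Leaving out arrays gave 0 to 6 (4.72% without BF replicate 2). FC vs. BG of tongue (12, 9.45%) gave 7 (8.49%) without moderation and 22 (21.1%) with weights, 9 higher and 13 lower. It gave 11 (17.2%) with the brighter probe sets, 5 higher and 6 lower, and 3 (10.3%) with 1 probe set per gene. Leaving out arrays other than those of tongue FC gave 2 (2.96%) to 14 (12.3%). BF vs. FC of tongue (4, 2.24%) gave 16 (8.98%) with weights, 2 higher and 1 lower (2.86%) with the brighter probe sets, and 0 (0.855%) with 1 probe set per gene. Leaving out arrays other than those of tongue FC gave 2 (1.33%) to 7 (3.69%). LD against tongue (52, 64.3%) gave 17 (66.5%) with 1 probe set per gene. Leaving out arrays other than those of tongue FC gave 49 (61%) to 55 (63.8%). The difference between muscles in BF vs. BG (1, 0.172%) gave 2 (0.433%) with the brighter probe sets and 0 (0.102%) with quantile normalization within muscle. It gave 13 (4.65%) with weights, 0 (0.0888%) with 1 probe set per gene and 7 (1.81%) without the widest arrays. Leaving out arrays gave 0 to 8 (1.66% without LD BG replicate 5). Using 1 probe set per gene tests fewer features, and for the other settings the cause was not tested.

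Of 22 pairs of same-numbered arrays of different housing in the same muscle, 11 had an r of their deviations over 0.1 (-0.218 to 0.545). Every pair was over 0.1 in BF vs. BG of tongue (3 of 3), but not in the other comparisons of housing, with 2, 2 and 4 of 5 in LD and 0 of 2 in tongue. Of 8 pairs of the same housing in both muscles, 2 were over 0.1. With the replicate number as a block within each muscle the counts were 26, 13, 9, 4, 18, 3, 54 and 5 in the order above. The shares of all probe sets were 12.4%, 11.7%, 4.65%, 2.35%, 14%, 2.71%, 63.3% and 0.57%. FC vs. BG of tongue then had 8 higher and 10 lower. A block for a mouse shared by both muscles (consensus correlation -0.0231) changed no count. Quantile normalization within muscle turned the split of BF vs. FC in tongue from 1 higher and 3 lower into 2 and 3. The scanned intensities were not used, so signal over background was not measured.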

Other observations

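The annotation names *Hnrnpa1* or *Hnrnpa3* together with other genes for 7 further probe sets, which the rule leaves out. The 3 of *Hnrnpa1* also name the pseudogenes *Gm10052*, *Hnrnpa1l2-ps2* and *Gm5643*, and the 4 of *Hnrnpa3* also name *Gm6793*, so their signal cannot be assigned to 1 gene. In BF vs. BG of LD, 1430020_x_at had a log2 change of 0.69 (SE 0.141, limma adjusted p = 0.00368), 1430019_a_at of 0.45 (SE 0.154, adjusted p = 0.0626) and 1423531_a_at of 0.00015 (SE 0.183, adjusted p = 1). In BF vs. FC of LD the first was at 0.51 (adjusted p = 0.0429) and the second at 0.56 (adjusted p = 0.0441). The 4 *Hnrnpa3* probe sets lay between -0.12 and 0.23 in BF vs. BG of LD, and none of the 4 passed there (smallest adjusted p = 0.215).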
